A study of Mus musculus with 6 samples.

Results

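The unfolded protein response genes examined here were Hspa5, Xbp1, Ddit3, Atf4, Atf3, Ern2, Dnajb9, Herpud1, Sdf2l1 and Trib3, sensors, factors and targets of the endoplasmic reticulum stress pathway that were picked by symbol, 10 of the 36172 rows of the expression table. All 10 reached 4 rpkm (mapped reads scaled to gene length and library size) in at least 1 library and were therefore among the 10042 genes tested. Poly(A) RNA was sequenced from organoids, gel cultures of epithelial cells, that had been grown from small intestinal tumors of Apc(D716) mice on a C57BL/6 background at 15 to 20 weeks of age. Every organoid carried the Apc allele truncated at codon 716 together with loss of the other Apc allele, so the controls were tumor cells too. The 3 genotypes, with 2 libraries each, were p53(+/+) with wild-type Trp53, p53(flox/flox), a homozygous null, and p53(M/M), homozygous for the missense mutation R270H. In the p53(flox/flox) cells the R270H allele sat behind an unrecombined stop cassette and was functionally null, and in the p53(M/M) cells the cassette had been removed by villin-CreER, a tamoxifen-dependent recombinase of the intestinal epithelium. The effect of the mutant protein therefore cannot be told apart from that of recombination and tamoxifen in the comparison of these genotypes. The study's methods describe no tamoxifen treatment for p53(+/+), so the same limit holds for p53(M/M) against p53(+/+). There the loss of wild-type p53 cannot be told apart either.

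The unfolded protein response is switched on when unfolded proteins build up in the endoplasmic reticulum, and it runs through the membrane sensors PERK (Eif2ak3), IRE1 (Ern1, and Ern2 in mucosal epithelia) and ATF6. PERK slows translation and raises the factor ATF4, which drives genes of amino acid supply and redox balance and the factor CHOP (Ddit3). IRE1 splices the Xbp1 mRNA, and the spliced XBP1 factor and cleaved ATF6 raise chaperones and degradation factors of the endoplasmic reticulum. In the intestine the pathway is best known from the secretory Paneth and goblet cells, and ATF4 also answers to amino acid shortage and other stresses outside the endoplasmic reticulum.

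Promoters with letter matches to known response elements of these factors are shown first. RefSeq (GRCm38.p6) gave a promoter window, from 250 bases before to 50 bases after the start, for 9 of the 10 members, and 3 of these are printed as the 250 bases before the start, 5′ to 3′ on the strand of the gene, with the matched elements in capitals. In Hspa5 (chr2:34771840-34772089, plus strand) the capitals mark the endoplasmic reticulum stress element, CCAAT and CCACG separated by 9 bases. In Herpud1 (chr8:94386179-94386428, plus strand) they mark first the C/EBP-ATF response element, TGATGNAA read on the opposite strand, and then the compact stress element ERSE-II, ATTGG and CCACG separated by 1 base. In Atf3 (chr1:191183334-191183583, minus strand) they mark the C/EBP-ATF response element, again on the opposite strand.
Hspa5: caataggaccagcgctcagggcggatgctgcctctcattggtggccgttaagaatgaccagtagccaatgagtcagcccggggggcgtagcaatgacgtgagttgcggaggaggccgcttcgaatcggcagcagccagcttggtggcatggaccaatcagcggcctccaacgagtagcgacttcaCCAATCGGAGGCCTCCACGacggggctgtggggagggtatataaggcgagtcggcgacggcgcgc
Herpud1: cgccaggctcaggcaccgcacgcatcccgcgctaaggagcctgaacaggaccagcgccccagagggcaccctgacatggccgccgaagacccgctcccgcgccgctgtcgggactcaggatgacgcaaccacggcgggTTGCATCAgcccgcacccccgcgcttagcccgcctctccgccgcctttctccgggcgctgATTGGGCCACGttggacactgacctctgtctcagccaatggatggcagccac
Atf3: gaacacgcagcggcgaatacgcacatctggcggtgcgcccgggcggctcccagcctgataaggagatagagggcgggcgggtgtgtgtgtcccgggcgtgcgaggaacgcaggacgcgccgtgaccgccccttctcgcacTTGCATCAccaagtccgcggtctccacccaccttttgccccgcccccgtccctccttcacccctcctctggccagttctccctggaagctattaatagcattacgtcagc

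The stress element of Hspa5 lay 65 to 47 bases before the start, and ERSE-II of Herpud1 52 to 42 bases before it. The C/EBP-ATF element lay 112 to 105 bases before the start in Herpud1 and 110 to 103 bases before it in Atf3. In Trib3 the same element, TTACATCA, lay 14 to 21 bases after the start. Both strands of 32851 mouse windows of the same length were searched, of which 0.119% held the stress element, 0.037% ERSE-II and 3.97% the C/EBP-ATF element. The element TGACGTGG (UPRE, 0.676% of windows) and the cyclic AMP element TGACGTCA (1.79%) were not found in the 9 member windows. The windows of Ddit3, Atf4, Xbp1, Sdf2l1 and Dnajb9 held no exact match to the elements searched. Elements with changed letters were not searched in any window. A match is a run of letters and was not tested for binding.

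The labels were first checked on Trp53, which stood at 75.9 and 74.3 rpkm in p53(+/+), 1.73 and 2.48 rpkm in p53(flox/flox) and 72.8 and 82.7 rpkm in p53(M/M). The p53 targets Cdkn1a and Mdm2 were lower in both mutant genotypes than in p53(+/+) (limma adjusted p from 0.00794 to 0.0353). The libraries of p53(flox/flox) differed from each other most, with a median SD over genes of 0.247 on the log2 scale against 0.0463 in p53(+/+) and 0.0621 in p53(M/M). The summed level of 6 epithelial markers was 1886 to 3220 rpkm over the 6 libraries. Of 16 stromal, immune and endothelial markers, 10 were at the floor of 1 rpkm in every library. Acta2, Cd68 and Cdh5, named after their values were seen, were the 3 that passed 4 rpkm in any library. Acta2 did so in p53(flox/flox) 2 alone, at 11.5 rpkm. The endothelial marker Cdh5 moved with genotype, at 8.88 and 9.35 rpkm in p53(+/+), 1.00 and 3.30 rpkm in p53(flox/flox) and 1.04 and 1.00 rpkm in p53(M/M), and was called lower in both mutant genotypes than in p53(+/+). The macrophage marker Cd68 stood at 10.2 and 9.87 rpkm, 2.06 and 11.1 rpkm, and 2.22 and 2.41 rpkm in the same order and was not called. Pecam1, Kdr, Ptprc and Csf1r were at the floor throughout, and the part of other cells in the results was not tested.

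Averaged over the 6 libraries, the rpkm levels of the members ran from 329 for Hspa5 and 182 for Atf4 through 51.8 for Xbp1, 36.8 for Herpud1, 19.9 for Sdf2l1, 15.0 for Trib3, 13.1 for Ddit3, 11.1 for Dnajb9 and 10.9 for Atf3 to 3.05 for Ern2. The ratio of the highest to the lowest library was widest for Trib3, at 9.18, and narrowest for Xbp1, at 1.43. Hspa5 stood above Atf4 and Atf4 above Xbp1 in each library, whereas the ranges of Sdf2l1, Trib3, Ddit3, Dnajb9 and Atf3 overlapped.

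**Figure D1:**
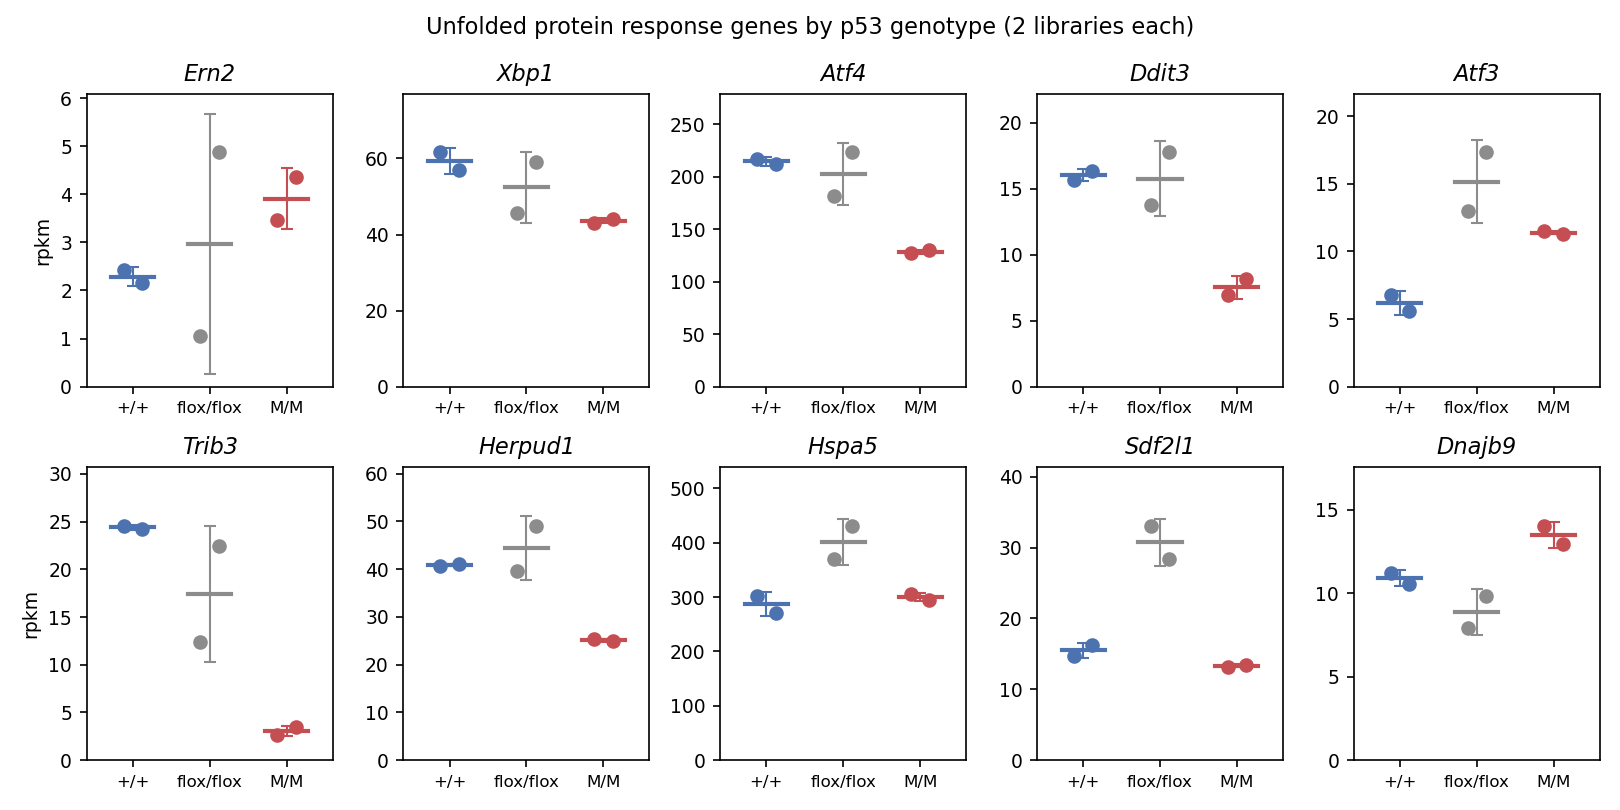
Level in rpkm (vertical axis, from 0, a separate scale for each gene) of the 10 unfolded protein response genes in the 2 libraries (points) of each p53 genotype (horizontal axis), with the mean (thick bar) and SD (thin bar). Trib3, Ddit3, Atf4 and Herpud1 are lowest in both p53(M/M) libraries, and Sdf2l1, Hspa5 and Atf3 are highest in both p53(flox/flox) libraries.

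Ern2 (Entrez 26918, chromosome 7, 122169893 to 122186239) encodes IRE1β, the IRE1 form of mucosal epithelia, and its position, like those of the other members, is that of RefSeq on GRCm38.p6, whose gene starts also define the promoter windows. Its level was 2.42 and 2.15 rpkm in p53(+/+), 1.06 and 4.88 rpkm in p53(flox/flox) and 3.46 and 4.36 rpkm in p53(M/M). The p53(flox/flox) libraries spanned all the others, with the lower of them close to the floor of 1 rpkm, and both p53(M/M) libraries were above both p53(+/+) libraries. Xbp1 (Entrez 22433, chromosome 11, 5520641 to 5525993), whose mRNA IRE1 splices, stood at 61.7 and 56.9 rpkm in p53(+/+), 45.7 and 59.0 rpkm in p53(flox/flox) and 43.1 and 44.1 rpkm in p53(M/M). The p53(M/M) libraries were the lowest, and those of p53(+/+) and p53(flox/flox) overlapped. A value per gene adds the spliced and unspliced forms, so these levels do not report splicing.

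Atf4 (Entrez 11911, chromosome 15, 80255184 to 80257545), the factor downstream of PERK, stood at 218 and 212 rpkm in p53(+/+), 182 and 224 rpkm in p53(flox/flox) and 127 and 130 rpkm in p53(M/M). Ddit3 (Entrez 13198, chromosome 10, 127290793 to 127296291), which encodes CHOP, stood at 15.7 and 16.3 rpkm, 13.8 and 17.8 rpkm, and 6.93 and 8.14 rpkm in the same order. For both factors the p53(M/M) libraries were lowest and the p53(flox/flox) libraries lay on either side of the p53(+/+) libraries. In GENCODE M21 the exons of Ddit3 shared 68 bases (4.0% of its exonic length) with Mars on the opposite strand. The library kit kept strand, but the strand setting of the counting is not given in the sources used here, and Mars was also lower in p53(M/M) than in p53(+/+), by a log2 difference of −0.57.

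Trib3 (Entrez 228775, chromosome 2, 152337425 to 152344060), a pseudokinase that ATF4 and CHOP raise and that dampens ATF4, stood at 24.6 and 24.2 rpkm in p53(+/+), 12.4 and 22.5 rpkm in p53(flox/flox) and 2.68 and 3.44 rpkm in p53(M/M). The 3 genotypes did not overlap, and p53(M/M) was below every other library. Atf3 (Entrez 11910, chromosome 1, 191170296 to 191183333), a stress factor that is raised by ATF4 and also by p53 and growth signals, stood at 6.81 and 5.57 rpkm in p53(+/+), 13.0 and 17.3 rpkm in p53(flox/flox) and 11.5 and 11.3 rpkm in p53(M/M). Its order was different from that of the other factors, with p53(+/+) lowest and p53(flox/flox) highest and no overlap.

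Herpud1 (Entrez 64209, chromosome 8, 94386429 to 94395371), a membrane protein of endoplasmic reticulum associated degradation, stood at 40.7 and 41.0 rpkm in p53(+/+), 39.6 and 49.1 rpkm in p53(flox/flox) and 25.3 and 24.9 rpkm in p53(M/M). It followed Atf4 and Ddit3, with p53(M/M) lowest and the p53(+/+) values inside the p53(flox/flox) range.

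Hspa5 (Entrez 14828, chromosome 2, 34772090 to 34776529), the abundant chaperone BiP, stood at 302 and 271 rpkm in p53(+/+), 371 and 432 rpkm in p53(flox/flox) and 306 and 295 rpkm in p53(M/M). Sdf2l1 (Entrez 64136, chromosome 16, 17130138 to 17132383), a partner of the chaperone complex, stood at 14.7 and 16.3 rpkm, 33.1 and 28.4 rpkm, and 13.2 and 13.5 rpkm in the same order. Both chaperone genes were highest in p53(flox/flox), and for Hspa5 the p53(+/+) and p53(M/M) libraries overlapped. Dnajb9 (Entrez 27362, chromosome 12, 44205897 to 44210068), the BiP cochaperone ERdj4 that restrains IRE1, stood at 11.2 and 10.6 rpkm in p53(+/+), 7.90 and 9.85 rpkm in p53(flox/flox) and 14.0 and 12.9 rpkm in p53(M/M). It ran the other way from the chaperone genes, with p53(M/M) highest, p53(flox/flox) lowest and no overlap.

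The comparison of p53(M/M) with p53(+/+) asks how cells with mutant p53 differ from tumor cells with the wild-type gene. In p53(M/M) Trib3 fell 7.98-fold by mean rpkm, Ddit3 2.12-fold and Atf4 1.67-fold, and the degradation factor Herpud1 fell 1.63-fold. Atf3 rose 1.84-fold, and the chaperone genes Hspa5 and Sdf2l1 had mean ratios of 1.05 and 0.862. In limma on log2(rpkm + 1) of all 6 libraries, 4 of the 10 members were called lower and 1 higher at an adjusted p under 0.05, against 6.36% of all genes tested called lower and 5.86% called higher. The median log2 difference of the members was −0.32, against 0.03 for all genes tested.

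The log2 difference of p53(M/M) from p53(+/+) was −2.65 for Trib3 (standard error 0.28, adjusted p = 0.00814), −1.0 for Ddit3 (0.16, 0.0223), −0.74 for Atf4 (0.13, 0.0301), −0.68 for Herpud1 (0.13, 0.0336) and 0.79 for Atf3 (0.17, 0.0462). These differences are on the log2(rpkm + 1) scale, which understates changes of low genes. Xbp1 had a difference of −0.43 (adjusted p = 0.116), with a 95% interval from −0.80 to −0.06. Hspa5, Sdf2l1, Dnajb9 and Ern2 had differences of 0.07, −0.20, 0.28 and 0.57, with adjusted p from 0.225 to 0.764, and the interval of Hspa5 ran from −0.26 to 0.40. When any single library was left out, the median log2 difference of the members ran from −0.33 to −0.30. Calls of these fits are given below beside those of all genes. Atf3 was not called under upper-quartile scaling (adjusted p = 0.0533).

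The comparison of p53(flox/flox) with p53(+/+) asks what loss of p53 alone goes with. Atf3 and Sdf2l1 rose, by 2.45-fold and 1.98-fold in mean rpkm, and the factors Atf4 and Ddit3 had mean ratios of 0.944 and 0.985. By limma 2 of the 10 members were called higher and 0 lower, with 3 higher and 0 lower at an unadjusted p under 0.05, against 4.38% of all genes tested called higher and 6.90% called lower. The median log2 difference of the members was 0.03, against −0.02 for all genes tested.

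The log2 difference of p53(flox/flox) from p53(+/+) was 1.16 for Atf3 (standard error 0.17, adjusted p = 0.0238) and 0.94 for Sdf2l1 (0.12, 0.0174). Hspa5 had a difference of 0.48 (adjusted p = 0.0741), with an interval from 0.15 to 0.81. Trib3 had a difference of −0.52 (adjusted p = 0.243), and its interval, from −1.23 to 0.19, covered a wide range, as did its p53(flox/flox) libraries at 12.4 and 22.5 rpkm. For Atf4 and Ddit3 the intervals ran from −0.43 to 0.24 and from −0.43 to 0.37. The median log2 difference of the members was 0.20 without p53(flox/flox) 1 and −0.22 without p53(flox/flox) 2. With any other library left out it ran from 0.01 to 0.03.

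The comparison of p53(M/M) with p53(flox/flox) sets the mutant protein against the absence of p53. Trib3 was 5.70-fold lower by mean rpkm in p53(M/M), Sdf2l1 2.30-fold, Ddit3 2.09-fold, Herpud1 1.77-fold and Atf4 1.58-fold lower, and Dnajb9 was 1.52-fold higher. By limma 5 of the 10 members were called lower and 1 higher, against 11.0% of all genes tested called lower and 13.6% called higher. The median log2 difference of the members was −0.53, against 0.03 for all genes tested. The comparisons share libraries with each other, so the same values enter more than 1 of them.

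The log2 difference of p53(M/M) from p53(flox/flox) was −2.13 for Trib3 (standard error 0.28, adjusted p = 0.0109), −1.14 for Sdf2l1 (0.12, 0.00641), −0.97 for Ddit3 (0.16, 0.0168), −0.79 for Herpud1 (0.13, 0.0169), −0.64 for Atf4 (0.13, 0.0278) and 0.56 for Dnajb9 (0.14, 0.0403). Hspa5 and Atf3 had differences of −0.41 and −0.37 (adjusted p = 0.0729 and 0.161), and Xbp1 and Ern2 −0.25 and 0.49 (adjusted p = 0.245 and 0.470). The other 17 settings included leaving out single libraries. Across them the difference ran from −2.54 to −1.73 for Trib3 and from −1.25 to −1.03 for Sdf2l1. For Dnajb9 it ran from 0.42 to 0.70.

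**Figure D2:**
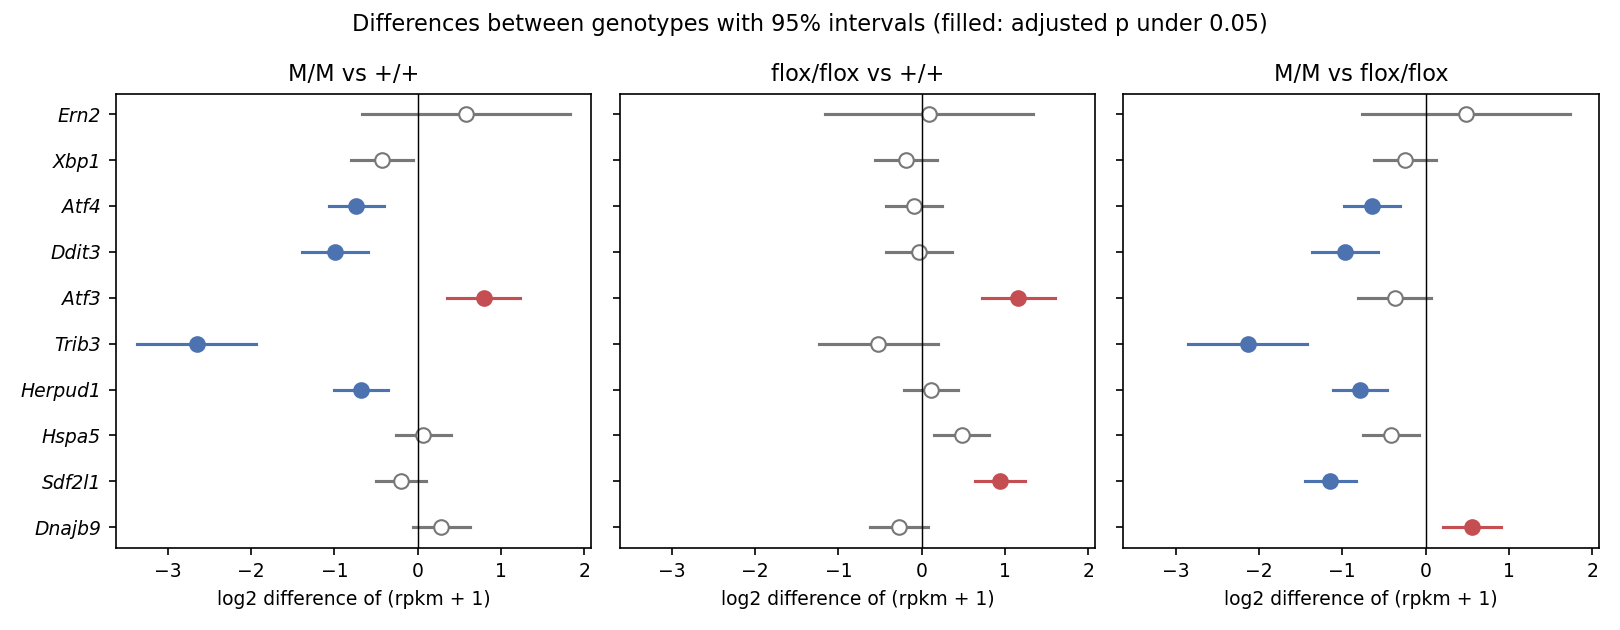
Difference between genotypes on the log2(rpkm + 1) scale (horizontal axis) for each of the 10 genes (vertical axis) in the 3 comparisons, with the 95% interval from limma. Filled points passed an adjusted p of 0.05 (blue lower, red higher), and Trib3 lies farthest from 0 in both comparisons that involve p53(M/M), at −2.65 and −2.13.

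The rest of the pathway was described with 6 lists, chosen like the members with earlier results of these data known. They hold 141 other genes, of which 136 passed the filter. By limma 29 of them were lower and 1 higher in p53(M/M) than in p53(+/+), 14 lower and 6 higher in p53(flox/flox) than in p53(+/+), and 25 lower and 7 higher in p53(M/M) than in p53(flox/flox). The share called lower was 21.3%, 10.3% and 18.4% in these comparisons, against 6.36%, 6.90% and 11.0% of all genes tested, and the share called higher was 0.735%, 4.41% and 5.15%, against 5.86%, 4.38% and 13.6%. The share of higher calls in p53(flox/flox) was thus near that of all genes. Targets of ATF4 and CHOP made up 23 of the 29 lower genes in p53(M/M) against p53(+/+) and 8 of the 14 lower genes, but 0 of the 6 higher genes, in p53(flox/flox).

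The sensors and their kin, with the proteases that cleave ATF6, made a list of 9 genes. Between p53(M/M) and p53(+/+), limma called 0 of the 9, with 0 at an unadjusted p under 0.05. In p53(flox/flox) against p53(+/+) it also called 0, with 1 higher and 1 lower at an unadjusted p under 0.05. Ern1, which encodes IRE1α, stood at 8.32 and 8.49 rpkm in p53(+/+), 2.54 and 7.52 rpkm in p53(flox/flox) and 14.8 and 14.6 rpkm in p53(M/M), and was higher in p53(M/M) than in p53(flox/flox) by a log2 difference of 1.52 (adjusted p = 0.050). Eif2ak2, a kinase that shares the substrate of PERK and answers to double-stranded RNA, was the other sensor called in that comparison (0.84, adjusted p = 0.0488). These 2 were 22.2% of the list, against 13.6% of all genes called higher. Eif2ak3 kept to between 8.30 and 11.6 rpkm in all 6 libraries. Atf6 stood at 24.8 and 26.9 rpkm in p53(+/+) and between 6.71 and 15.3 rpkm in the other 4 libraries, and its log2 differences of −1.26 for p53(flox/flox) and −0.77 for p53(M/M) had adjusted p of 0.0758 and 0.203.

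Of 11 further transcription factors 9 passed the filter, and 3 of them were lower in p53(M/M) than in p53(+/+), with 0 higher. The 3 were 33.3% of those tested, against 6.36% of all genes called lower. Atf5, a factor of the ATF4 network, stood at 36.0 and 31.7 rpkm in p53(+/+), 17.7 and 13.7 rpkm in p53(flox/flox) and 7.39 and 8.78 rpkm in p53(M/M). It was lower in each genotype in turn, and each of the 3 differences was called (log2 differences of −1.94, −1.07 and −0.87). Nupr1, a stress-induced chromatin protein, had log2 differences of −1.65 for p53(M/M) against p53(+/+) and −1.58 against p53(flox/flox) (adjusted p = 0.0241 and 0.0188). Nfe2l2, which encodes the oxidative stress factor NRF2 and is a target of PERK signaling, was lower than in p53(+/+) in both p53(M/M) and p53(flox/flox) (log2 differences of −1.55 and −1.21).

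The ATF4 and CHOP targets, which supply amino acids, charge tRNAs and buffer redox stress, had the largest number of calls of the 6 lists against p53(+/+). The list was chosen with earlier results of these data known, so its share is a description only. Against p53(+/+), 23 of 35 were lower in p53(M/M) and 1 higher, with a median log2 difference of −0.88, and the lower calls were 65.7% of the list. In p53(flox/flox) against p53(+/+) 8 were lower and 0 higher, with 16 lower and 2 higher at an unadjusted p under 0.05 in limma. The lower calls were 22.9% of the list, next to 22.2% of the transcription factor list, and the median was −0.45. Between the mutant genotypes 12 were lower in p53(M/M), 34.3% of the list, and 1 higher, with a median of −0.42. The medians of all genes tested were 0.03, −0.02 and 0.03 in these comparisons.

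Among these targets Chac1, which degrades glutathione, stood at 22.3 and 22.6 rpkm in p53(+/+), 15.7 and 23.3 rpkm in p53(flox/flox) and 3.39 and 4.61 rpkm in p53(M/M). Like Trib3 it was lowest in p53(M/M), with a log2 difference of −2.24 from p53(+/+) and −2.02 from p53(flox/flox). Stc2, a secreted stress glycoprotein, was also lowest in p53(M/M), with log2 differences of −1.84 and −1.61. Slc7a11 and Slc3a2, which together form the cystine transporter, were lower in p53(M/M) than in p53(+/+) by −2.04 and −1.44, and Slc3a2 also than in p53(flox/flox), by −1.22.

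Other targets were low in both mutant genotypes. Cth, which makes cysteine, stood at 123 and 140 rpkm in p53(+/+), 27.7 and 29.7 rpkm in p53(flox/flox) and 39.4 and 36.8 rpkm in p53(M/M), with log2 differences of −2.15 and −1.76. Sesn2, a stress sensor of leucine and redox state, had differences of −1.52 and −1.77, and Gpt2, an alanine transaminase, −1.41 and −1.48. Slc7a3, a cationic amino acid transporter, had −1.24 for p53(flox/flox) (adjusted p = 0.0356) and −0.88 for p53(M/M) (adjusted p = 0.0698). As background, Sesn2, Ddit4, Bbc3 and Tnfrsf10b of this list are also targets of p53.

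Ddit4, an inhibitor of mTORC1, stood at 51.6 and 42.3 rpkm in p53(+/+), 74.2 and 118 rpkm in p53(flox/flox) and 19.6 and 23.0 rpkm in p53(M/M). It was highest in p53(flox/flox) and lowest in p53(M/M), and differed by −2.09 between these and by −1.10 between p53(M/M) and p53(+/+) (adjusted p = 0.00864 and 0.0497). Sesn3, named after its values were seen, was the only target called higher in p53(M/M), with 19.3 and 19.1 rpkm there against 8.91 to 11.3 rpkm in the other 4 libraries.

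**Figure D3:**
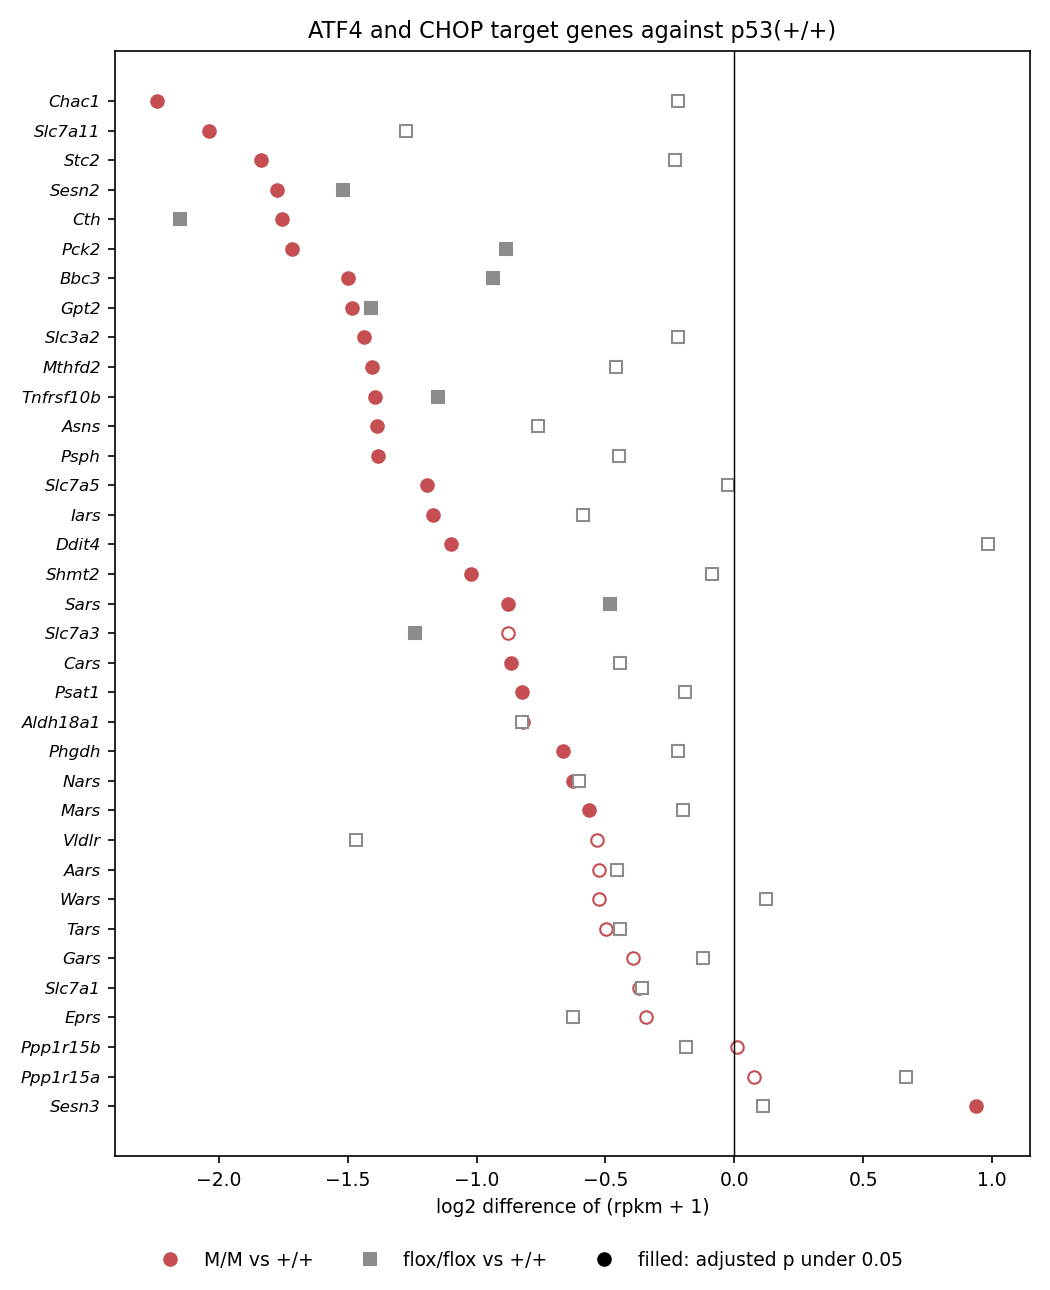
Difference from p53(+/+) on the log2(rpkm + 1) scale (horizontal axis) of each of the 35 ATF4 and CHOP targets (vertical axis, ordered by the p53(M/M) difference), with red circles for p53(M/M) and grey squares for p53(flox/flox). Filled symbols passed an adjusted p of 0.05, which 24 genes did for p53(M/M) and 8 for p53(flox/flox).

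Chaperones and folding enzymes of the endoplasmic reticulum gave 28 genes past the filter of 30 listed. Of these 2 were lower and 0 higher in p53(M/M) than in p53(+/+), namely Sil1, the nucleotide exchange factor of BiP (log2 difference −1.31), and the disulfide isomerase Txndc5 (−0.61). These were 7.14% of the list, near the 6.36% of all genes. In p53(flox/flox) against p53(+/+) 3 were higher, namely the secreted stress proteins Manf and Creld2 and the lectin chaperone Calr, with differences of 1.21, 1.02 and 0.60. Sil1 was the 1 gene lower there, at −0.78. The shares of the list were 10.7% higher and 3.57% lower, against 4.38% and 6.90% of all genes.

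Manf stood at 25.3 and 20.9 rpkm in p53(+/+), 59.5 and 49.7 rpkm in p53(flox/flox) and 24.8 and 26.4 rpkm in p53(M/M), and Creld2 at 14.5 and 14.4, 34.2 and 26.8, and 14.9 and 17.4 rpkm. Both were highest in p53(flox/flox), like Sdf2l1 and Hspa5, with p53(flox/flox) above every other library. Against p53(flox/flox), 6 genes of the list were lower in p53(M/M), 21.4% against 11.0% of all genes, and 0 were higher. The lower genes included the secreted growth factor Mydgf at −1.23, Manf at −1.06, Creld2 at −0.87 and Txndc5 at −0.68.

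Of the genes of endoplasmic reticulum associated degradation, 20 of 21 passed the filter. For p53(M/M) against p53(+/+) limma called 0, with 2 higher and 1 lower at an unadjusted p under 0.05. In p53(flox/flox) against p53(+/+) 3 were higher, the selenoproteins Vimp and Selk and the conjugating enzyme Ube2j2 (0.80, 0.75 and 0.75). Another 2 were lower, among them the lectin Erlec1 (−0.79). The shares of the list were 15% higher and 10% lower, against 4.38% and 6.90% of all genes. Between the mutant genotypes Herpud2 (0.71) and Erlec1 (0.54) were higher in p53(M/M) and Edem2 (−0.51) and Ube2j2 (−0.48) lower. Neither share of the list, 10% higher and 10% lower, exceeded that of all genes, 13.6% and 11.0%. Herpud2 and Herpud1 were called in opposite directions.

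Of the 35 genes of translocation and secretory transport, only Ssr1 of the translocon (−0.50) was called in p53(M/M) against p53(+/+), and only Sec62 (−0.51) in p53(flox/flox) against p53(+/+). Each was 2.86% of the list, against 6.36% and 6.90% of all genes called lower. For p53(flox/flox) against p53(+/+), 10 were higher and 3 lower at an unadjusted p under 0.05 in limma. Compared with p53(flox/flox), the translocon subunit Sec61b (−1.72), the retrieval receptor Kdelr2 (−0.92) and Ssr1 (−0.50, named after its values were seen) were lower in p53(M/M). Sec63 (0.58) and Sec62 (0.54) were higher there. Neither share of the list, 8.57% lower and 5.71% higher, exceeded that of all genes, 11.0% and 13.6%.

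**Figure D4:**
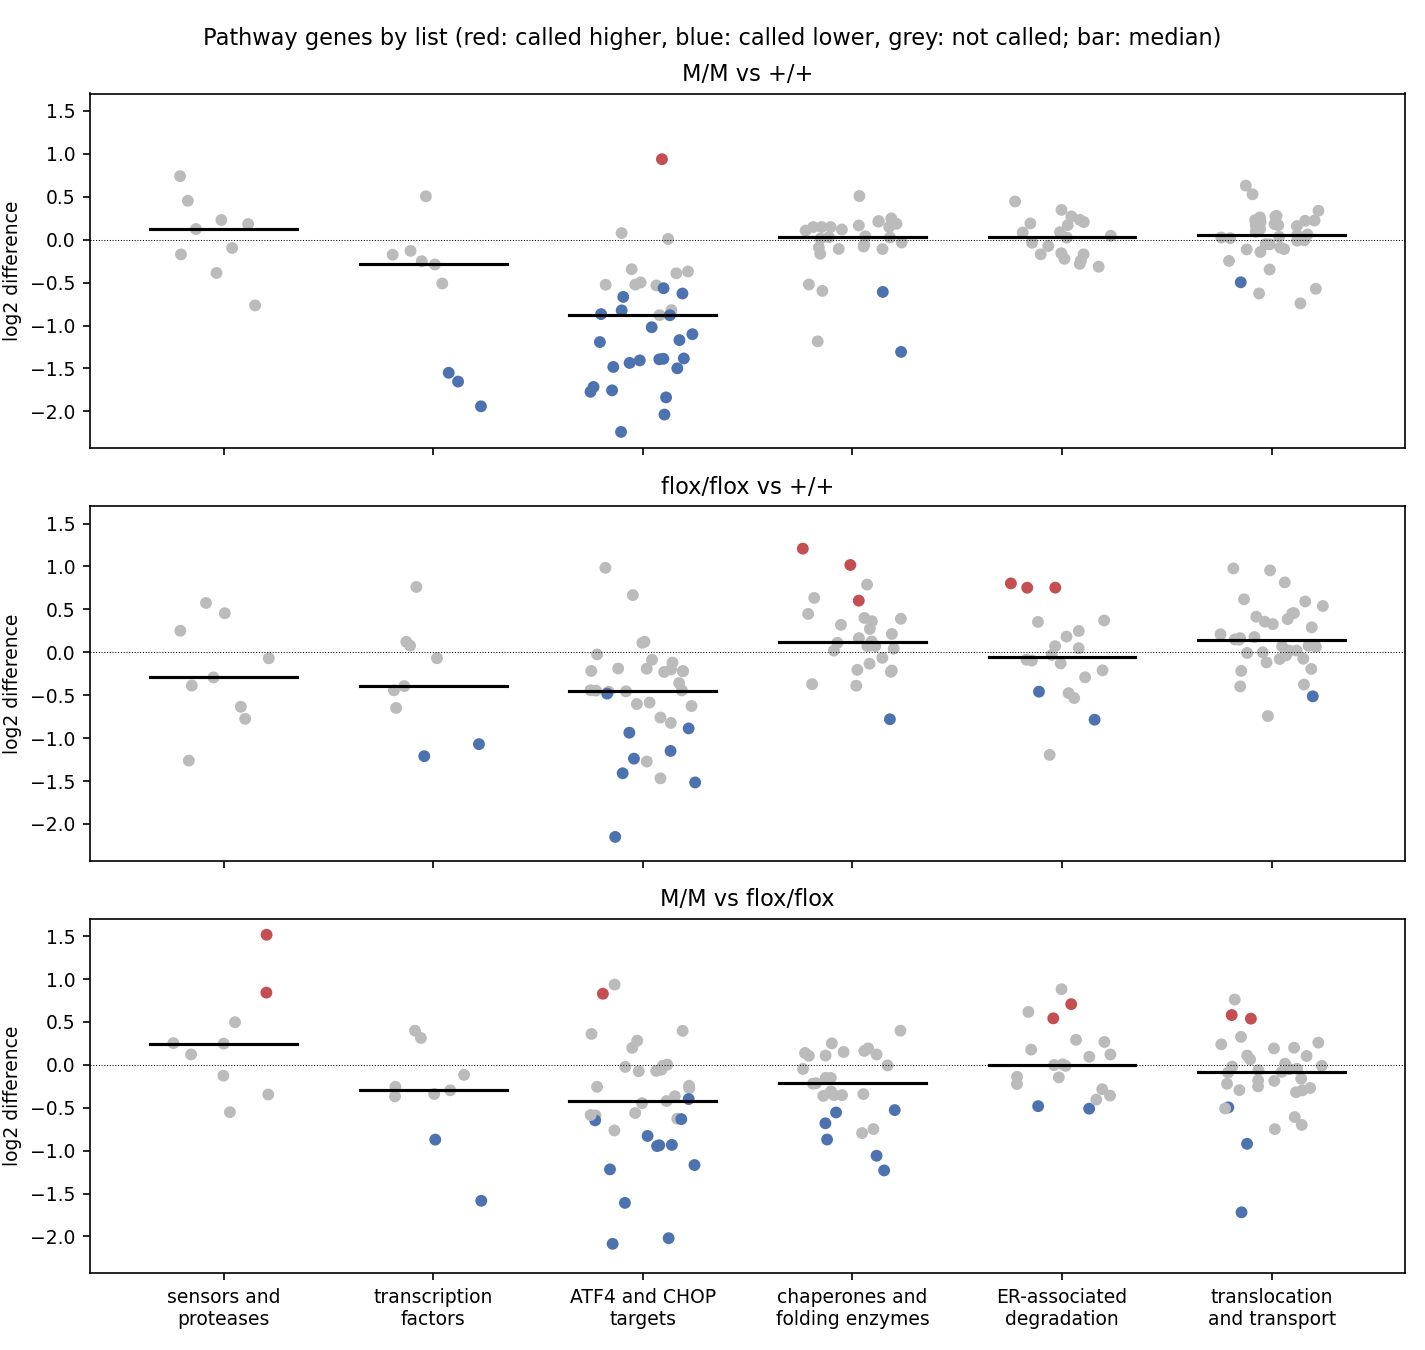
Difference on the log2(rpkm + 1) scale (vertical axis) of the 136 other pathway genes in 6 lists (horizontal axis) for the 3 comparisons (rows), with the median of each list as a bar. Blue and red points were called lower and higher by limma and grey points were not called, and the ATF4 and CHOP targets have the lowest median, −0.88, in p53(M/M) against p53(+/+).

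Markers of secretory cells moved with the p53 genotype as well. The summed level of 6 Paneth cell markers, all past the filter, was 1413 to 1765 rpkm in p53(+/+), 599 to 628 rpkm in p53(flox/flox) and 521 to 577 rpkm in p53(M/M). In p53(M/M) against p53(+/+) 5 of the 6 were lower and Itln1, named after its values were seen, was higher, at 135 and 156 rpkm against 74.9 and 74.8 rpkm. The lower calls were 83.3% of the 6, against 6.36% of all genes. Between the mutant genotypes 2 were called higher and 1 lower in p53(M/M), 33.3% and 16.7% against 13.6% and 11.0% of all genes. The median log2 difference was 0.79, although Mmp7 and the sum were lower in p53(M/M). The summed level of 9 goblet cell entries, of which 6 passed the filter, was 354 to 418 rpkm, 152 to 181 rpkm and 179 to 182 rpkm, with the defining marker Muc2 at or near the floor in all libraries. The 5 enteroendocrine markers summed to 11.7 to 16.7 rpkm in p53(+/+) and to 5 rpkm, which is the floor for each, in p53(M/M). In bulk RNA, fewer cells of a type and less RNA per cell cannot be told apart, and the part of these cells in the results was not tested. The Xbp1 level was 61.7 and 56.9 rpkm in p53(+/+) and 43.1 and 44.1 rpkm in p53(M/M), and the part of secretory cells in it was not tested.

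Atf3 is also an immediate early gene, one that dissociation or growth factors raise within minutes. Of 16 other immediate early genes 13 passed the filter, and the summed level of all 16 was 300 to 302 rpkm in p53(+/+), 318 to 410 rpkm in p53(flox/flox) and 137 to 163 rpkm in p53(M/M). In p53(M/M) against p53(+/+), where Atf3 was higher, 4 of them were lower and 0 higher, with 9 lower and 0 higher at an unadjusted p under 0.05. The 4 were 30.8% of those past the filter, against 6.36% of all genes called lower. In p53(flox/flox) against p53(+/+) 1 was higher and 1 lower, with 6 higher and 2 lower at an unadjusted p under 0.05. Each call was 7.69% of those past the filter, against 4.38% of all genes called higher and 6.90% called lower. The most abundant of the 16 genes were Myc, Ier3 and Klf6, with log2 differences of −1.18, −1.09 and −0.55 in p53(M/M) (adjusted p = 0.00548, 0.0531 and 0.0301). The direction of Atf3 in p53(M/M) was opposite to that of the called genes of this list, and the part of handling in its level was not tested.

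Over the 6 libraries, the log2 levels of Atf4, Ddit3, Trib3 and Herpud1 had Pearson correlations of 0.949 to 0.995 with each other. Hspa5 correlated with Sdf2l1 at 0.837 and with Atf3 at 0.838, but with Ddit3 at 0.369. Dnajb9 and Sdf2l1 correlated at −0.907. These values describe 6 libraries in 3 genotypes and largely follow the genotype means. The genes closest to Ddit3 among the 10041 others tested were H6pd (0.998), Mid1ip1 (0.997) and 1700066B19Rik (0.996), and those closest to Hspa5 were Ttc9c (0.994), Pus10 (0.990) and Rrm1 (0.986).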

How the data were processed

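Poly(A) RNA of tumor-derived organoids was sequenced from stranded libraries. Per the study's methods, the authors aligned the reads to mm10 and used StrandNGS to obtain rpkm, and these deposited rpkm values were the input here. The StrandNGS version, annotation and strand setting are not given in the sources used here. No value is below 1, and 23760 of 36172 rows are at 1 in all 6 libraries, so levels under this floor are unknown. Counts are not in the table. From steps of 1 read in short RNA genes (within 0.05 read for 70.0% to 80.0% of at least 10 genes) the depth of 4 libraries came to 44.3 to 47.4 M reads, and that of p53(+/+) 1 and p53(flox/flox) 1 is unknown.

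The 10042 genes that reached 4 rpkm in any library were fitted as log2(rpkm + 1) with limma 3.58.1 (R 4.3.3, eBayes with trend) over all 6 libraries without a block. Tests were two-sided and Benjamini-Hochberg adjusted over all genes tested, with calls at an adjusted p under 0.05. Members and lists were chosen with earlier results of these data known. The text names all members, 3 sensors, up to 4 called genes of each pathway list and comparison with the largest differences, the p53 check genes, the most abundant genes of marker lists, and the 3 genes most like Hspa5 and Ddit3. Pathway genes outside this rule are given mostly as counts, and 1 gene is not reported here by name. The deviations of same-numbered libraries had correlations of mixed sign (0.12, −0.29 and −0.20), so the numbers were not taken to pair them. Whether libraries shared a batch is not given in the sources used here. The sources describe 2 organoid samples per genotype, so p-values measure the spread between these samples. The study's methods do not say whether the 2 came from different mice or tumors, so spread between tumors may not be covered. Alternatives changed the pseudocount, filter, scaling, block, libraries fitted and variance model. The limma fit of p53(M/M) against p53(+/+), but not the steps in Python 3.11.15, was tested on simulated data.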

Additional observations from a re-analysis of the deposited data

How the results depend on the processing

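Beside the main fit, 17 settings were run for each comparison. Every called difference of a member kept its direction in all of them, but this was largely fixed in advance. Filters, blocks, genotype weights, the trend and fitting only the 2 genotypes compared leave a gene's difference unchanged. For each called member the libraries of the compared genotypes did not overlap, so leaving out a library could not turn the sign. Ern2 in p53(flox/flox) against p53(+/+), which was not called, turned to −0.67 without p53(flox/flox) replicate 2 and was 0.84 without replicate 1. Small differences of Hspa5, Ddit3, Atf4, Herpud1 and Ern2 that were not called also changed sign in single settings. Pseudocounts of 0.1 or none, median-of-ratios scaling and no trend left all counts within 1.5 times. For p53(M/M) against p53(+/+), the 5 members called became 8 with only the 2 genotypes compared and 9 with a weight for each genotype. The 30 pathway genes became 85 and 83, and the 1227 of all genes 5768 and 5987, or 1907 with genes above 1 rpkm kept. For p53(flox/flox) against p53(+/+), the same 2 settings took 2 members to 0 and 0, with 3 and 2 at an unadjusted p under 0.05 in limma, 20 pathway genes to 1 and 1, and 1133 of all genes to 59 and 150. For p53(M/M) against p53(flox/flox) they took 6 members to 2 and 3, 32 pathway genes to 7 and 8, and 2469 of all genes to 397 and 534. With 4 rpkm required in both libraries of a genotype, Ern2 dropped out and the members' medians moved from −0.32 to −0.43 and from −0.53 to −0.64 in the comparisons with p53(M/M).

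With the replicate number as a block, members called were 2, 0 and 4 in the order of the comparisons above (3 at an unadjusted p under 0.05 where 0), pathway genes 23, 3 and 13, and all genes 550, 280 and 1156. With the p53(M/M) numbers exchanged, a choice made after seeing the data, members called were 4, 2 and 5. The block ended the calls of Atf3, Atf4 and Herpud1 in the first comparison, of Atf3 and Sdf2l1 in the second and of Atf4 and Dnajb9 in the third.

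Leaving out 1 library gave 0 to 8, 0 to 8 and 0 to 9 members called, 0 to 83, 0 to 99 and 1 to 100 pathway genes, and 0 to 5746, 8 to 6891 and 165 to 7241 of all genes. The median of the members ran from −0.22 to 0.20 in the second comparison and from −0.68 to −0.40 in the third. Counts rose when a p53(flox/flox) library was left out and fell when another was, and a lone library was then assumed to vary like the other genotypes. The spread rests on 3 pairs of libraries, so which members pass depends on how the wide p53(flox/flox) pair is weighed. The floor of 1 rpkm limits Ern2 and Sesn2, and depth is not known for every library.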

Other observations

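Cytosolic heat shock genes, which answer to unfolded proteins outside the endoplasmic reticulum, were compared in the same way. Of 7 listed genes 6 passed the filter, and the summed level of all 7 was 1650 to 1687 rpkm in p53(+/+), 1901 to 1996 rpkm in p53(flox/flox) and 1455 to 1552 rpkm in p53(M/M). By limma 2 of the 6 were higher and 0 lower in p53(flox/flox) than in p53(+/+), 33.3% against 4.38% of all genes called higher. At an unadjusted p under 0.05 in limma, 3 were higher and 0 lower. In p53(M/M) against p53(flox/flox) 4 were lower, 66.7% against 11.0% of all genes. The 2 that were higher, named after their values were seen, were Hsph1, at 39.9 and 32.4 rpkm in p53(flox/flox) against 19.6 and 21.6 rpkm in p53(+/+), and Hspa1b, at 8.73 and 12.05 rpkm against 1.13 in both. Hspa1b shares near-identical sequence with Hspa1a, so its level is uncertain. In p53(M/M) against p53(+/+) limma called 0 of the 6, with 2 higher and 1 lower at an unadjusted p under 0.05.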
